A study of Mus musculus with 5 samples.

Results

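Gastric and intestinal secretory and identity genes were examined in hepatobiliary organoids as a set of 10 genes given by symbol: the trefoil factors Tff1, Tff2 and Tff3, the gastrokines Gkn1 and Gkn2, the secretory-pathway gene Agr2, the protease inhibitor Spink1, the crypt glycoprotein Olfm4 and the homeobox genes Cdx2 and Pdx1. All 10 were found among the 52029 genes of the table shared by 4 libraries and in the table of the fifth. The organoids were self-renewing epithelial cultures of wild-type primary mouse liver stem/progenitor cells, kept in an EGF-containing medium with the ROCK inhibitor Y-27632 in every group. Organoids alone (2 libraries, M11 and M12, passage 1) were compared with organoids co-cultured with liver endothelial cells (3 libraries, passage 8), all at day 10. Co-culture and passage changed together and cannot be told apart. The co-culture libraries M9 and M10 share a table with M11 and M12. The third co-culture was deposited separately, counted on RefSeq genes, under a column whose number differs from that of its record. It is therefore described without a test of its own, and it enters a test only in the alternative fit with all 5 libraries.

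Trefoil factors are small secreted peptides whose looped domain is held by disulfide bonds, and they are released with mucins onto mucosal surfaces. Tff1 is typical of gastric surface mucous cells, Tff2 of gastric mucous neck cells and Brunner glands, and Tff3 of intestinal goblet cells, while biliary epithelium can make trefoil peptides too. Cdx2 directs intestinal identity, and Pdx1 marks the pancreas, the duodenum and the distal stomach.

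The libraries held 26466739 to 35878241 counts in the shared table and 58853737 in the third co-culture, so that 0 counts allow up to 0.0836 to 0.113 CPM (counts per 1e6 counts; a floor of 3 counts) in the former and up to 0.051 in the latter. Mitochondrial genes took 2.31% to 2.80% of counts in the shared table and 6.04% in the third co-culture. They were the genes so named in each annotation, and these shares are therefore not directly comparable. Libraries of a group differed by more than counting noise, and no label says that they are separate cultures; the p-values thus measure only how far these libraries spread, perhaps for technical reasons. All 10 biliary markers, among them Krt7, Krt19, Epcam and Sox9, were detected in all 5 libraries. They summed to 12831 and 16690 CPM alone, 26614 and 21172 in M9 and M10, and 10331 for the third co-culture. Of the 10, 3 rose in M9 and M10, where 0.994% of all genes tested rose. These were Krt7, Krt19 and Prom1, by 1.11, 1.15 and 1.19 on the log2 scale (adjusted p = 0.0303, 0.0436 and 0.0264, edgeR). None passed as lower, with Spp1 at -1.44 (adjusted p = 0.0825, edgeR). In the third co-culture the log2 differences of Krt7, Krt19 and Prom1 were -0.80, -0.60 and 1.29, and 2 of the 10 markers lay above the organoids alone. The part of these markers in the members' differences was not tested. The 12 endothelial markers summed to 1.47 to 2.19 CPM in the organoids alone and to 1.10 to 1.59 in the co-cultures. Clec4g was at 0 in every library, and Emcn and Erg were at 0 in M12 and in all 3 co-cultures. Cdh5 went the other way, with 3 and 2 counts alone and 6, 5 and 19 in M9, M10 and the third co-culture. Pecam1 held 1 and 2 counts alone and 2, 2 and 10 in the same co-cultures. In bulk RNA, fewer cells of a type and less RNA per cell cannot be told apart.

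Of the 10 genes, 8 passed the low-count filter and were tested. At an adjusted p under 0.05 (edgeR's quasi-likelihood test, Benjamini-Hochberg over 15899 genes) 0 passed, where the background was 2.24% of genes, 0.994% higher and 1.25% lower. At an unadjusted p under 0.05 there were 5 (Agr2, Tff3, Olfm4, Tff2 and Cdx2), against a background of 17.5%. DESeq2 called 4 of them (Tff3, Agr2, Olfm4 and Cdx2; background 8.6%) and limma-voom 0 (background 1.79%). In M9 and M10 both libraries lay above both organoids alone for Tff2, Tff3, Cdx2 and Pdx1, as for 24.3% of all genes tested, and both lay below for Agr2 and Olfm4, as for 25.1%. With the third co-culture included, all 3 co-cultures lay above for Tff2, Tff3 and Cdx2 (background 15.1%) and below for Agr2 and Olfm4 (background 16.9%). The median log2 fold change of the 8 tested genes was 0.68, against 0.00058 over all genes tested.

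**Figure D1:**
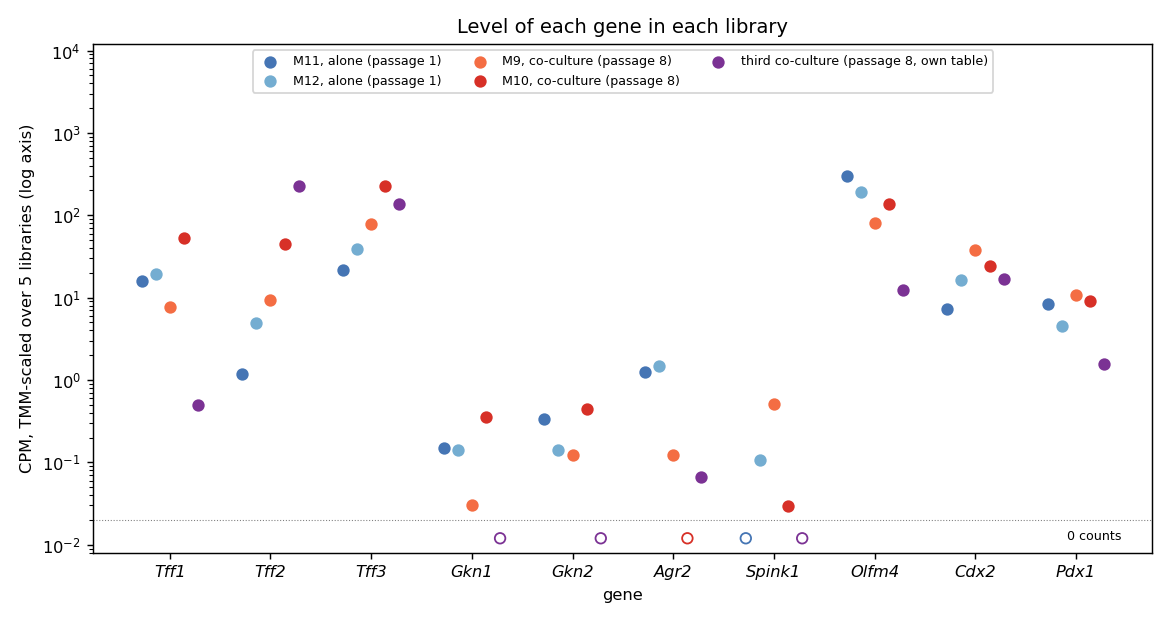
Level of each of the 10 genes (x axis) in each of the 5 libraries (points), in CPM scaled over 5 libraries on a log axis; open circles at the bottom are libraries with 0 counts. Tff2 spans 1.17 to 226 CPM, while Gkn1, Gkn2 and Spink1 stay below 1 CPM in every library.

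The 3 trefoil genes lie side by side on the minus strand of chromosome 17 (GRCm38), with Tff3 (ENSMUSG00000024029) from 31125306 to 31129646, Tff2 (ENSMUSG00000024028) from 31141049 to 31144282 and Tff1 (ENSMUSG00000024032) from 31161395 to 31165277, a span of 39.972 kb. Each value covers the whole gene, so that exons and UTRs are not told apart. Tff1 overlaps the antisense gene Gm15318 over 1660 bases, and both carry counts that are not whole. In each of the 4 libraries the 2 genes' counts add to a whole number (433, 571, 275 and 1840 in M11, M12, M9 and M10), of which Gm15318 holds 14.26, 24.71, 25.47 and 79.28. Reads of Tff1 and of this antisense gene are thus not separable here.

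Tff3 was the most abundant of the 10 genes per exon length in co-culture libraries M9 and M10. On a CPM scale set over all 5 libraries, its level was 21.7 and 39.4 in organoids alone (M11, M12), against 78.5 and 228.9 in co-cultures M9 and M10 and 137 in the third one. All 3 co-cultures lay above both organoids alone. From 30.6 ± 12.6 CPM alone to 153.7 ± 106.3 in M9 and M10 (SD, n = 2 each), the log2 fold change was 2.32 ± 0.55 (SE; adjusted p = 0.105, edgeR; higher in 2 of 2 co-cultures). DESeq2 called this gene (adjusted p = 4.21e-05), whereas limma-voom did not (adjusted p = 0.148). It also did not pass edgeR without a low-count filter (adjusted p = 0.555) or with all 5 libraries (adjusted p = 0.304). With 1 library left out, its log2 fold change ranged from 1.37 (without M10) to 2.90 (without M9).

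Tff2 was higher in every co-culture than in either library of organoids alone, most of all in the third. Organoids alone held 31 (M11) and 138 (M12) counts of it, and the co-cultures 308 (M9), 1519 (M10) and 13489 (the third), or 1.17, 4.86, 9.36, 45.1 and 226 CPM. The groups did not overlap, but the organoids alone differed 4.14-fold from each other and M10 was 4.82 times M9. The log2 fold change was 3.16 ± 0.94 (SE; adjusted p = 0.17, edgeR), and 1.64 without M10 against 4.52 without M12. The third co-culture was 75.0 times the mean of the organoids alone and 5.02 times M10, with no replicate of its own.

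Tff1 did not share this order. Its CPM were 15.9 (M11) and 19.2 (M12) in organoids alone, and 7.60 (M9), 52.3 (M10) and 0.504 (the third, from 30 counts) in co-culture. The co-cultures thus lay on both sides of the organoids alone, which differed 1.21-fold from each other. The log2 fold change of M9 and M10 was 0.76 ± 0.79 (adjusted p = 0.696, edgeR). With either co-culture library alone the gene passed, in opposite directions: 1.57 without M9 (adjusted p = 0.000653) and -1.20 without M10 (adjusted p = 0.0302). Its level in the third co-culture was 34.9-fold under the mean of the organoids alone.

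All 3 trefoil genes were higher in M10 than in M9, by 6.88-fold for Tff1, 4.82-fold for Tff2 and 2.92-fold for Tff3. For comparison, 14449 genes passed the low-count filter over 5 libraries and had counts in all 4 libraries of the shared table. Over these genes the median M9 to M10 difference was 1.26-fold and 15.0% differed at least 2-fold. Of the genes flanking the cluster, which were chosen after their values were seen, Abcg1 had a log2 fold change of 0.09 ± 0.31 (adjusted p = 0.92, edgeR), Tmprss3 held 0 and 3 counts in organoids alone and 2 and 17 in M9 and M10, and Ubash3a held 3, 2, 1 and 0 in that order.

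To set levels of the 3 genes against each other, CPM were divided by the kilobases of merged exons (0.703 for Tff1, 0.584 for Tff2 and 0.493 for Tff3). Tff3 made up 64.1% and 69.1% of the summed trefoil level in M11 and M12, 85.6% and 75.4% in M9 and M10, but 41.8% in the third co-culture. Tff2 held 2.93% and 7.20% alone, 8.62% for M9, 12.5% for M10 and then 58.1% in the third co-culture, where it was the leading trefoil gene at 388 CPM per kilobase. The share of Tff1 was 32.9% and 23.7% alone and 5.81%, 12.1% and 0.107% in the 3 co-cultures. The share of Tff1 was thus lower, and that of Tff2 higher, in each co-culture than in either organoid library alone. The summed level was 68.6 and 116 CPM per kilobase alone, 186 for M9, 616 for M10 and 667 for the third co-culture, whose reads were counted on another annotation.

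**Figure D2:**
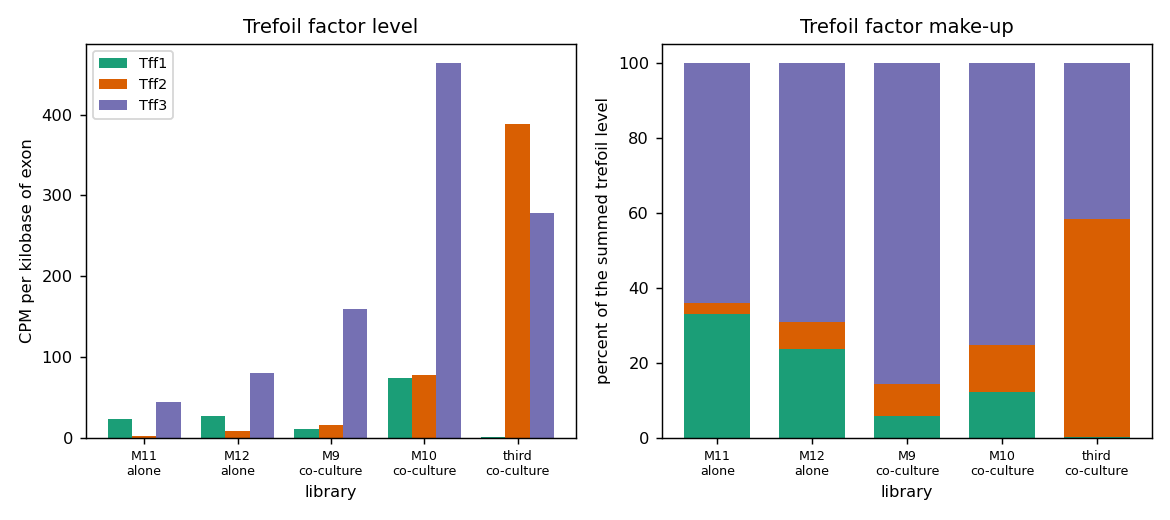
Left, level of Tff1, Tff2 and Tff3 (bars) in each library, in CPM per kilobase of merged exons; right, each gene's percent of the summed trefoil level. Tff3 leads in the 4 libraries of the shared table, and Tff2 (58.1%) leads in the third co-culture.

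The gastrokines, proteins secreted by gastric surface mucous cells, were close to the limit of detection in every library. Gkn1 (ENSMUSG00000030050, chromosome 6, 87345650 to 87350942, minus strand) held 4 and 4 counts in organoids alone and 1, 12 and 0 in co-cultures M9, M10 and the third, too few for the filter. Gkn2 (ENSMUSG00000030049, 87373357 to 87379497, plus strand), which lies 22.414 kb away, held 9, 4, 4, 15 and 0 counts in that order. Both had their highest count in M10. The ratio of M9 and M10 together to the organoids alone, per total count, was 1.30 for Gkn1 (95% counting interval 0.498 to 3.61) and 1.17 for Gkn2 (0.546 to 2.57), so that no difference was detectable at this depth, and edgeR gave Gkn2 a log2 fold change of 0.24 ± 0.89 (adjusted p = 0.929). With the third co-culture put at its floor of 3 counts, the organoids alone were 2.82-fold higher for Gkn1 and 4.58-fold higher for Gkn2. These 2 ratios leave out the counting error of the 8 and 13 counts summed over the organoids alone, so they are not lower limits. The intervals, and the floor for the third co-culture, cover counting error only.

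Spink1, which encodes a Kazal-type inhibitor of trypsin made by pancreatic acinar cells, held 0 and 3 counts in organoids alone (M11, M12) and 17, 1 and 0 in co-cultures M9, M10 and the third, and was not tested. M9 alone held 17 of the 18 counts of M9 and M10. Per total count the ratio to the organoids alone was 4.79 (95% counting interval 1.40 to 25.4), with M10 below M12. The gene (ENSMUSG00000024503) occupies chromosome 18, 43728082 to 43737557, minus strand.

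Agr2 encodes a protein disulfide isomerase of the endoplasmic reticulum that is needed for mucin production in goblet cells, and was the member with the largest fitted difference. It had 33 and 42 counts in the organoids alone, against 4, 0 and 4 in co-cultures M9, M10 and the third. Both organoids alone lay above all 3 co-cultures. The 75 counts alone against 4 in M9 and M10 gave a ratio of 23.5 per total count (95% counting interval 8.81 to 88.5), and against the 4 of the third co-culture a ratio of 19.8 (7.43 to 74.7). The log2 fold change was -4.41 ± 1.01 (SE, adjusted p = 0.0989, edgeR, lower in 2 of 2 co-cultures), and -3.43 without M10. Without M9 the remaining co-culture is at 0 counts, so the fitted size is no bound. The gene passed edgeR without a low-count filter (adjusted p = 0.000459) and DESeq2 (adjusted p = 0.012). It did not pass limma-voom (adjusted p = 0.0813) or edgeR with all 5 libraries (adjusted p = 0.335). Its level in the organoids alone was 0.969 and 1.15 CPM per kilobase, at percentiles 40.0 and 41.8 of the genes detected in M11 and M12. The mesenchymal markers were lower in co-culture too, summing to 37.3 and 109 CPM in M11 and M12 against 5.87, 5.46 and 10.6 in M9, M10 and the third co-culture. Of those 10 markers 7 were tested, 2 of which fell (Col3a1 and Rgs5), and Lum had 6 counts in M11 and 0 in the 4 other libraries. The 10 hepatocyte markers summed to 1045 and 1919 CPM alone and to 310, 506 and 1920 in the 3 co-cultures, mostly from Apob and Trf, with Serpina1a at 0 in M9 and M10. Of 8 tested, 3 fell in M9 and M10 (Alb, Trf and Hp, with log2 fold changes of -7.33, -3.25 and -7.51; adjusted p = 0.0186, 0.0345 and 0.046, edgeR), and Apoa1 and Ttr were at 2.74 and 1.01 (adjusted p = 0.136 and 0.188). In the third co-culture the log2 differences of Alb, Trf and Hp were 1.13, 0.37 and -1.29. The 7 macrophage markers summed to 682 and 586 CPM alone and to 313, 276 and 430. Most of this was Cd14, which fell, as did Lyz2 (16902 of the 18042.6 counts in M11 were Cd14). The 2 other tested macrophage markers, Cd68 and Csf1r, were at 0.79 ± 0.35 and 0.47 ± 0.28 in M9 and M10 (adjusted p = 0.324 and 0.463, edgeR). In the third co-culture their log2 differences were -1.32 and 1.43. The pan-leukocyte gene Ptprc held at most 8 counts in any library, and Adgre1 and Clec4f were at 0 in all 5. The part of these marker levels in the results on Agr2 and Olfm4 was not tested.

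Agr2 (ENSMUSG00000020581) occupies chromosome 12, 35992907 to 36004087, plus strand. Its promoter, from RefSeq (GRCm38.p6), is shown because the gene had the set's largest fitted difference: chr12:35992675-35992906, plus strand, with motif matches in capitals. It runs from 250 bases before the RefSeq start to the first exon base of GENCODE, which leaves out 18 bases.
Agr2: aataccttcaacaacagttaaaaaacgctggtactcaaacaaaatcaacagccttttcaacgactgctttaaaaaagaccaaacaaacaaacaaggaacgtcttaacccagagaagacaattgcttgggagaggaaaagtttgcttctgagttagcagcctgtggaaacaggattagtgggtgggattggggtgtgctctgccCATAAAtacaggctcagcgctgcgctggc
The capitals are a CDX-type motif, TTTATG, which here lies on the opposite strand and begins 47 bases before the start. It occurs on either strand in 10.8% of 32851 mouse promoter windows of 250 bases before a start. No TATA box (TATAAA), FOX-type (GTAAACA), octamer (ATGCAAAT), HIF-type core (ACGTG) or GATA-type (AGATAA) motif was present on either strand of the 250 bases. A match is only a match of letters. Promoter entries were found for 6 of the 10 genes (Gkn1, Gkn2, Agr2, Cdx2, Pdx1 and Olfm4).

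Olfm4, a secreted glycoprotein that marks crypt-base stem cells of the intestine, was the most abundant of the 10 genes in M11 and the second after Tff3 in M12, at 101 and 64.7 CPM per kilobase. These levels lay at percentiles 97.9 and 96.1 of detected genes. With co-culture, Olfm4 stood at percentile 89.2 (M9), 94.0 (M10) and 51.8 (the third). In CPM it was at 300.0 (M11) and 191.6 (M12) alone and at 81.5 (M9), 136.8 (M10) and 12.4 (the third) in co-culture, so that all 3 co-cultures lay below both organoids alone. From 245.8 ± 76.6 to 109.2 ± 39.1 CPM in M9 and M10 (SD, n = 2 each), the log2 fold change was -1.18 ± 0.32 (SE; adjusted p = 0.141, edgeR). DESeq2 called Olfm4 (adjusted p = 0.00759), whereas limma-voom (adjusted p = 0.145) and edgeR with all 5 libraries (adjusted p = 0.588) did not. With 1 library left out, the log2 fold change ranged from -1.58 (without M10) to -0.81 (without M11). The third co-culture lay 19.8-fold below the mean of the organoids alone.

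The gene (ENSMUSG00000022026) occupies chromosome 14, 79984081 to 80023139, plus strand, and Gm6999, a long noncoding gene that overlaps it on the same strand, had 0 counts in the 4 libraries. Its promoter is shown beside that of Agr2 because both genes were lower in every co-culture: chr14:80000052-80000250, plus strand, with 51 exonic bases before the RefSeq start left out. The stretch lies inside the GENCODE span given above, because the RefSeq start is downstream of the GENCODE start.
Olfm4: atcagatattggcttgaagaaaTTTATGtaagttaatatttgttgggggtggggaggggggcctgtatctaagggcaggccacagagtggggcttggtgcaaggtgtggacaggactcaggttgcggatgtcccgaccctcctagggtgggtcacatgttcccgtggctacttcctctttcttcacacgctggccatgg
The capitals mark 1 CDX-type motif, TTTATG, on the same strand, beginning 228 bases before the start. No match to any other motif searched was found in the 250 bases.

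Cdx2, the homeobox factor of intestinal epithelium, was detected in every library. Organoids alone held 194 (M11) and 460 (M12) counts and the co-cultures 1264 (M9), 810 (M10) and 1009 (the third), or 7.35, 16.2, 38.4, 24.0 and 16.9 CPM. M9 and M10 lay above both organoids alone, and the third co-culture was close to M12. The log2 fold change of M9 and M10 was 1.40 ± 0.44 (SE; adjusted p = 0.185, edgeR), and it ranged from 0.95 without M11 to 2.09 without M12. The organoids alone differed 2.21-fold from each other. DESeq2 called it (adjusted p = 0.0186). Its paralogue Cdx1 held 1 count in each library of organoids alone and 0 in each co-culture (chosen with its values known).

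Pdx1, a homeobox factor of the pancreas and the duodenum, stood at 8.45 and 4.55 CPM in organoids alone (M11, M12), at 10.7 and 9.06 in co-cultures M9 and M10 and at 1.58 in the third. The third co-culture was thus the lowest of the 5 libraries. The log2 fold change of M9 and M10 was 0.60 ± 0.38 (SE; adjusted p = 0.497, edgeR), whereas the third co-culture was 4.12-fold under the mean of the organoids alone. Pdx1 overlaps the antisense gene Plut over 1563 bases, which held 57 and 62 counts alone and 64 and 29 in M9 and M10, beside 223, 129, 352 and 305 of Pdx1. Per kilobase of exon, Cdx2 was 0.830 times Pdx1 in M11, 3.40 times in M12, 3.43 times in M9, 2.53 times in M10 and 10.2 times for the third co-culture.

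Pdx1 (ENSMUSG00000029644, 147269959 to 147275848, plus strand) and Cdx2 (ENSMUSG00000029646, 147300805 to 147307270, minus strand) are neighbours on chromosome 5, 24.956 kb apart, and differed in which library was lowest. The promoter of Cdx2 is shown because the gene was higher in all 3 co-cultures: chr5:147307271-147307499, minus strand, with 21 exonic bases before the RefSeq start left out.
Cdx2: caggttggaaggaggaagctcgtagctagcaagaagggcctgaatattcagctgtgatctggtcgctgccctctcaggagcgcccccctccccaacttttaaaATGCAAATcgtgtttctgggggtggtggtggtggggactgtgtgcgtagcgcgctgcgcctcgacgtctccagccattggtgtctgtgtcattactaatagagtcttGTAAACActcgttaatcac
The capitals are, from left to right, an octamer (ATGCAAAT) beginning 147 bases before the start and a FOX-type motif (GTAAACA) 40 bases before it. A HIF-type core on the opposite strand, 24 bases before the start, reaches into the exonic bases and is not shown. The octamer occurs in 1.6% of the 32851 windows, the FOX-type motif in 3.17% and the HIF-type core in 16.6%. No CDX-type motif was found in the 250 bases before Cdx2. The GC share of the stretch shown was 53.7% for Cdx2, 53.8% for Olfm4 and 44.4% for Agr2.

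**Figure D3:**
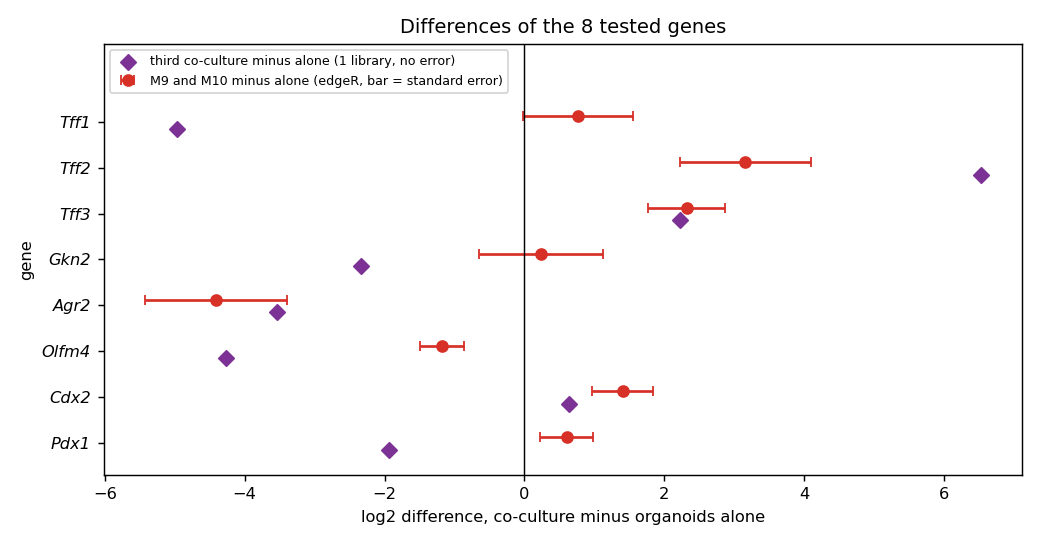
Log2 difference between co-culture and organoids alone (x axis) for the 8 tested genes (y axis): circles with standard errors are the edgeR fit of M9 and M10 (n = 2 against 2), diamonds the third co-culture, which has no error. Tff2, Tff3 and Cdx2 lie right of 0 in both and Agr2 and Olfm4 left of 0 in both, while Tff1, Gkn2 and Pdx1 lie on opposite sides.

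In the third co-culture 2 of the 8 tested genes were at least 2-fold above the organoids alone, Tff2 and Tff3 (background 14.5% of 14721 genes). At least 2-fold below them were 5, namely Tff1, Olfm4, Agr2, Gkn2 and Pdx1 (background 17.6%). The median over the 8 was -2.14, against -0.01 over all genes. It depends on Gkn2, at 0 counts in that library: the median was -3.02 with a prior count of 0.5 in place of 2, and -2.07 with Gkn2 at the floor of 3 counts. The comparisons share M11 and M12 as their reference and are not independent. For Tff3, the difference on the log2 scale was 2.23 there, beside 1.42 in M9 and 2.97 in M10. For Olfm4 it was -4.27, beside -1.56 and -0.81.

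Related genes were taken from 6 lists of gastric, goblet and Paneth, regulatory, intestinal, stem cell and pancreatic genes. Of 102 listed symbols, 100 were matched in the shared table and 54 were tested. In M9 and M10, 3 rose and 2 fell, a share of 9.26% against the background of 2.24%. An unadjusted p under 0.05 was found for 25 of the 54, against a background of 17.5%. The lists were drawn up with earlier results of these data known, in which Gpa33 and Lgals4 already stood out, so this share is a description. The calls rest on single libraries, among the related genes as among all genes. With all 5 libraries edgeR called 0 of the related genes (18 at an unadjusted p under 0.05) and 2 of all genes.

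Among 11 tested gastric genes 1 rose and none fell in M9 and M10, with a median log2 fold change of 1.32. In the third co-culture the median difference from organoids alone was -1.36. There 3 genes were at least 2-fold above (background 14.5%) and 6 at least 2-fold below (background 17.6%). The gene that rose was Tmprss2, a membrane serine protease that many other epithelia make too, which went from 130.5 and 147 CPM in M11 and M12 to 430.0 and 489.8 in M9 and M10 (1.72 ± 0.16, adjusted p = 0.0153, edgeR), with 298 in the third co-culture. The gastric mucin Muc5ac, secreted together with Tff1 by surface mucous cells, was at 72 and 509 counts alone and at 19, 12 and 11 counts in the 3 co-cultures (-4.46 ± 0.99, adjusted p = 0.0915, edgeR). The aspartic protease gene Ctse had 212 and 66.3 CPM without co-culture and 18.8, 64.8 and 3.59 in the 3 co-cultures (-1.74 ± 0.72, adjusted p = 0.298). Sult1c2, a sulfotransferase, had 4.66 and 6.91 CPM without co-culture and 15.9, 13.0 and 53.7 in the co-cultures (1.32 ± 0.32, adjusted p = 0.108). Other genes, chosen with their values known, differed between co-cultures: Vsig1 and Psca, at 2.41 ± 0.49 (adjusted p = 0.0778) and 3.26 ± 0.68 (adjusted p = 0.0807) in M9 and M10, had log2 differences of -2.22 and -1.36 for the third co-culture. Gata4, at 1.78 ± 0.50 (adjusted p = 0.149) in M9 and M10, had one of 2.72. Genes of acid-, enzyme- and hormone-secreting gastric cells, also chosen with their values known, were at low counts. Atp4b, Cblif and Lipf had at most 3 counts in any library, and Gast and Pga5 had 0 in all 5. Of the 3 that were tested, the proton pump gene Atp4a held 23 and 40 counts alone and 46, 56 and 91 in the co-cultures (0.42 ± 0.48, adjusted p = 0.732). The pepsinogen gene Pgc held 14 and 17 counts alone and 68, 82 and 43 in the co-cultures (1.98 ± 0.46, adjusted p = 0.1). The hormone gene Ghrl held 7, 5, 12, 16 and 0 counts in the same order (0.92 ± 0.64, adjusted p = 0.541).

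Of 11 tested goblet and Paneth genes 1 fell and none rose in M9 and M10, with a median of 0.83. The median was -1.74 in the third co-culture, with 2 genes at least 2-fold above (background 14.5%) and 6 at least 2-fold below (background 17.6%). Mmp7, a matrix protease of Paneth cells that injured biliary epithelium makes too, fell from 119 and 128 CPM to 9.69 and 3.80 (-4.19 ± 0.46, adjusted p = 0.0203, edgeR) and was at 7.62 CPM in the third co-culture. Fcgbp, a mucus protein, had 32.8 and 20.7 CPM without co-culture and 41.4, 60.0 and 86.2 in the co-cultures (0.92 ± 0.29, adjusted p = 0.194). Sytl2 and Fxyd3 were at -0.03 ± 0.21 (adjusted p = 0.963) and -0.12 ± 0.33 (adjusted p = 0.897). Among genes picked with their values known, the goblet mucin gene Muc2 held 11 and 16 counts alone and 7, 52 and 45 in the 3 co-cultures. Clca1, a goblet cell mucus protein, held 46 and 70 counts alone and 238, 386 and 3 in co-culture. It was thus above the organoids alone in M9 and M10 and below them in the third co-culture.

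None of 10 tested secretory regulators passed edgeR (4 at an unadjusted p under 0.05, 1 by DESeq2, 0 by limma-voom), and the median was -0.13. Xbp1, the factor that expands the secretory endoplasmic reticulum, had 242 and 246 CPM without co-culture and 388, 322 and 835 in the co-cultures (0.54 ± 0.16, adjusted p = 0.177). Foxa2, Klf4 and Ern1 were at 0.03 ± 0.18, 0.43 ± 0.31 and -0.13 ± 0.19 (adjusted p = 0.961, 0.551 and 0.806). Ern2, the stress sensor of mucous cells, was chosen with its values known; it held 18 and 16 counts alone and 1, 3 and 7 in the co-cultures, all 3 of which lay below, as for Agr2 (-3.29 ± 0.77, adjusted p = 0.103). Atoh1, which commits intestinal cells to secretory fates, had 0 counts in all 5 libraries.

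Of 11 tested intestinal identity genes 2 rose and 1 fell, with a median of 0.91. Lgals4, a galectin of digestive epithelium, rose from 105 and 205 CPM to 912 and 798 (2.46 ± 0.34, adjusted p = 0.0314, edgeR) and was at 566 CPM in the third co-culture. Gpa33, which encodes an immunoglobulin-like glycoprotein on intestinal cells, rose by 4.72 ± 0.19 (adjusted p = 0.00387). Slc5a1, the sodium-glucose cotransporter of enterocytes, fell from 243 and 404 counts to 1 and 2 (-7.90 ± 0.58, adjusted p = 0.00797) and had 11 counts in the third co-culture. The intestinal list therefore held called genes in both directions, while Cdx2 itself did not pass.

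Neither the stem cell list (7 tested, median -0.34, 3 at an unadjusted p under 0.05, 2 by DESeq2, 0 by limma-voom) nor the pancreatic list (4 tested, median 0.09, 1, 1 and 0) had a gene that passed edgeR. In the third co-culture the medians of these lists were -1.22 and 0.57. Beside Olfm4, Cd44, Slc12a2, Sox4 and Rgmb were at -0.63 ± 0.37, -0.85 ± 0.25, 0.44 ± 0.15 and -0.32 ± 0.20 (adjusted p = 0.471, 0.171, 0.208 and 0.495). Beside Pdx1, the transcription factor genes Hhex and Onecut1 were at -0.22 ± 0.16 and 0.28 ± 0.56 (adjusted p = 0.561 and 0.857), and the elastase gene Cela1 was at 1.93 ± 0.42 (adjusted p = 0.0886). Ptf1a, Mnx1, Pnlip, Ins1, Ins2, Gcg and Sst had 0 counts in all 5 libraries.

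**Figure D4:**
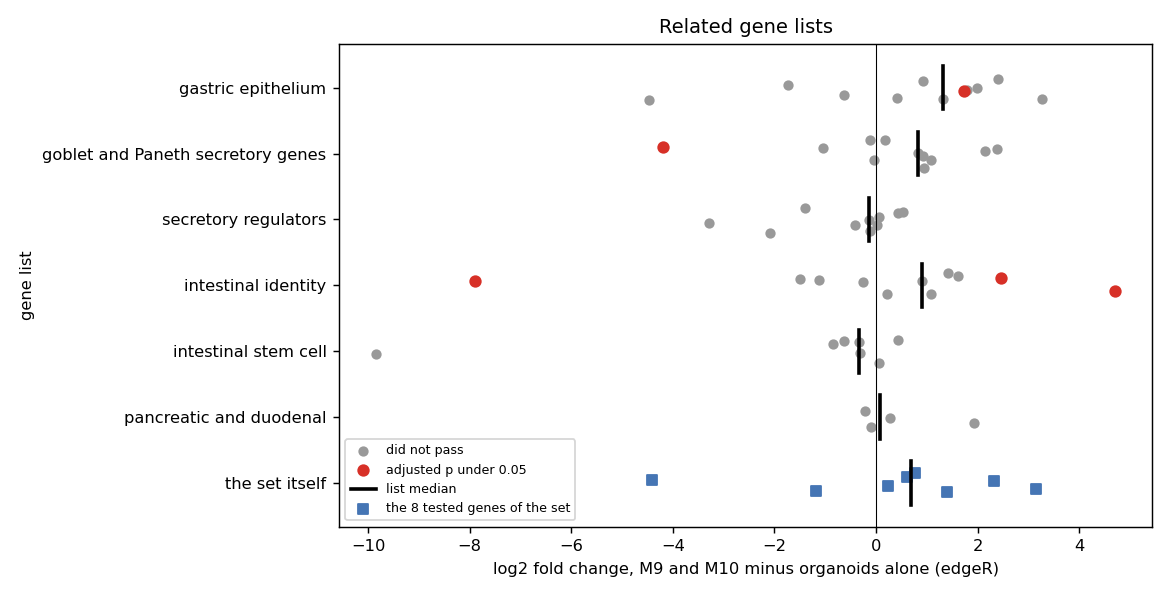
Log2 fold change of M9 and M10 against organoids alone (x axis) for tested genes of the 6 related lists and for the 8 tested genes of the set (rows); red points passed edgeR at an adjusted p under 0.05 and black bars are medians. The 5 genes that passed are Tmprss2, Mmp7, Gpa33, Lgals4 and Slc5a1, and none of the 8 squares passed.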

How the data were processed

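Per the labels' protocols, the kit was stranded and removed ribosomal RNA. Tools named without roles in the submitters' processing notes are StringTie 2.1.3b, Bowtie2 2.3.4.1, HISAT2 2.1.0, FastQC 0.11.7 and Trimmomatic 0.38. No counting tool or strand setting is named. The authors deposited estimated counts per Ensembl gene for 4 libraries, per the file headers, and whole-number counts per RefSeq gene for the third co-culture. The 10 other columns of per-sample values (FPKM and TPM) were not used. Genes repeated by biotype were kept once, estimated counts were rounded, and the tables were joined by symbol for 30844 genes holding 97.7% of that library's counts.

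M9 and M10 were compared with M11 and M12 in edgeR 4.0.16 (R 4.3.3): filterByExpr, TMM, robust quasi-likelihood test, Benjamini-Hochberg adjustment at 0.05. Each standard error is the size of the log2 fold change divided by the root of its F statistic. Printed CPM of genes are TMM-scaled over 5 libraries, marker sums are per total count, levels per kilobase use merged GENCODE exons, and log2 differences of single libraries use a prior count of 2. Intervals of count ratios are exact binomial. DESeq2 1.42.0, limma-voom 3.58.1, other scalings, other filters, left-out libraries and all 5 libraries were alternatives. Tested on simulated counts for 15899 genes, the edgeR step recovered 40% of genes changed 2-fold and 86% of those changed 4-fold, with 16 false calls among 177. The changed genes were drawn only from genes with higher mean counts than Agr2 and Gkn2, so these rates do not cover such low-count members. Named genes were the 10 members and, from each list, up to 4 called genes by smallest p, filled up with the most abundant where fewer than 2 were called. A gene that this rule named is not reported here. The members and lists were chosen with earlier results of these data known. Positions are from GENCODE M21 (GRCm38).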

Additional observations from a re-analysis of the deposited data

How the results depend on the processing

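With 2 libraries per group, single libraries decided many calls. Leaving out each library in turn, edgeR called 0 to 2619 genes in all (356 with all 4), 0 to 3 of the 10 members (0 with all 4) and 0 to 19 genes of the related lists (5 with all 4). The members called were Tff1, Tff3 and Agr2 without M9 and Tff1, Agr2 and Olfm4 without M10; none was called without M11 or without M12, and without M12 no gene at all (1438 at an unadjusted p under 0.05). A fit without 1 library leaves the lone library of an arm assumed to vary like the other group. DESeq2 called 1314 genes, 4 members and 18 related genes. Without a low-count filter edgeR called 1404, 1 member (Agr2) and 18. With all 5 libraries it called 2 genes, 0 members and 0 related genes. The cause of these changes was not tested. The other scalings, limma-voom and the filter of 1 CPM in 2 libraries called 285 to 413 genes, 0 members and 5 to 6 related genes. The sign of Agr2, Cdx2, Olfm4, Pdx1, Tff2 and Tff3 was kept under all 12 alternatives. Tff1 was at -1.20 without M10 and at 1.57 without M9. Gkn2 was between -0.27 (without M12) and 0.99 (without M11) with 1 library left out, and at -0.39 with all 5 libraries. In the third co-culture 7 of the 8 tested members were at least 2-fold away, also under library totals or a prior count of 0.5. No paired analysis was possible because the columns of the shared table carry no replicate numbers of the labels. Depth limits Gkn1, Gkn2 and Spink1, with at most 17 counts in any library.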
